A study of Mus musculus with 15 samples.

Results

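The polyamines putrescine, spermidine and spermine are small positively charged metabolites that bind nucleic acids and that growing cells need. The expression of 10 genes of their metabolism was followed in 15 mouse tumors, 1 library per mouse. The 10 genes were fixed by name from textbook roles, out of 23329 genes in the count files. No measured value entered the rule, but the list was chosen with earlier results of these data known. They are the synthesis genes Odc1, Amd1, Srm and Sms, the antizyme genes Oaz1 and Oaz2, the antizyme inhibitor Azin1, and the breakdown genes Sat1, Smox and Paox. Of these 10 genes, 9 passed the filter on low values, which kept 14880 genes whose level, as reads scaled to library size (CPM), was over 1 in at least 3 tumors. Amd1 did not pass.

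EμMyc mice express c-Myc in B cells under the Ig heavy chain enhancer and develop lymphomas. Th-MYCN mice express human MYCN in the sympathetic lineage from the promoter of tyrosine hydroxylase and develop neuroblastomas. Both were studied with intact Casp2 and with Casp2 deleted in the germ line, in every tissue of the animal. The 4 groups were 4 EμMyc lymphomas with onset at 13 to 19 weeks, 3 EμMyc/Casp2-/- lymphomas at 8 to 12 weeks, 4 Th-MYCN neuroblastomas at 10 to 21 weeks and 4 Th-MYCN/Casp2-/- neuroblastomas at 15 to 24 weeks. All 7 lymphomas came from cervical lymph nodes of C57BL/6 mice, and all 8 neuroblastomas from the thorax beside the spine of mixed Sv129/C57BL6 mice, chosen for little or no vascularization. Strain, tissue and oncogene therefore differ together between the tumor types and cannot be told apart. Onset differs with genotype in the lymphomas, where the ranges do not overlap, and its part there was not tested. Whole tumors were sequenced, so fewer cells of a type and less RNA per cell cannot be told apart either.

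Polyamine synthesis starts when ornithine decarboxylase, encoded by Odc1, makes putrescine from ornithine. S-adenosylmethionine decarboxylase, encoded by Amd1, supplies the aminopropyl groups that spermidine synthase (Srm) and spermine synthase (Sms) add to make spermidine and spermine. Antizymes bind ornithine decarboxylase and send it to the proteasome, and the antizyme inhibitor encoded by Azin1 takes antizyme away from it. Spermidine/spermine acetyltransferase (Sat1) marks polyamines for export or for oxidation by Paox, and Smox oxidizes spermine directly. Odc1 is a textbook target of Myc proteins, which bind DNA at E-boxes such as CACGTG.

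Libraries held 4940464 to 17638029 reads in genes. EuMycC2ko215, an EμMyc/Casp2-/- tumor, stood apart. It was the shallowest library, 11.2% of its reads did not map against at most 3.89% elsewhere, it came from the only female among the lymphomas, and its 6 T cell markers summed to 993 CPM against at most 55.5 CPM in the EμMyc tumors. B cell and neuroblast markers followed the tumor type of the labels. The 6 B cell markers summed to 1804 to 4308 CPM in lymphomas and 5.60 to 21.3 CPM in neuroblastomas, and the 6 neuroblast markers to 1.73 to 15.8 CPM and 2344 to 4116 CPM. Macrophage markers were present in every group, at sums of 313 to 1678 CPM over 7 genes. Casp2 was at 125 to 203 CPM in EμMyc and 51.9 to 76.1 CPM in EμMyc/Casp2-/- tumors, a log2 difference of -1.35 (SE 0.27, edgeR likelihood ratio test (LRT) FDR 0.0004, quasi-likelihood (QLF) FDR 0.0536). In the neuroblastomas it was at 76.0 to 125 CPM in Th-MYCN and 39.6 to 80.2 CPM in Th-MYCN/Casp2-/- tumors (log2 -0.79, SE 0.25, LRT FDR 0.101), so the ranges overlapped there. The study reports that genotyping and immunoblotting showed the Casp2 deletion in all its tumor samples. Myc was at 498 to 1914 CPM in lymphomas and 4.69 to 15.6 CPM in neuroblastomas, and Mycn at 0.0855 to 2.15 CPM and 230 to 430 CPM. The transgene of the neuroblastomas is a human gene, so the mouse Mycn count may not measure it in full.

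Promoter sequence was looked up because the tumors are driven by Myc proteins. RefSeq promoters on GRCm38.p6, windows of 300 bases that end shortly after a start site, were available for 8 of the 10 genes, 10 promoters in all, and were searched for CACGTG, which reads the same on both strands. Sms held the motif, 1 of 8 genes or 12.5%, and over all genes with a promoter in the table the share was 8.09%. The looser CANNTG, which includes CACGTG, was in 7 of 8 genes (87.5%) and in 75.0% of all genes. By promoter the share was 1 of 10, or 10%, and 7.15% of all promoters. Of the 2 Sms promoters in the table, the one that holds the motif is on the minus strand at chrX:157492238-157492537, where CACGTG starts 196 bases before the start site, and the other, at chrX:157491319-157491618, holds none. The first is printed with the motif in capitals because it is the only 1 of the 10 promoters that holds it. The Odc1 promoter, on the plus strand at chr12:17544623-17544922, is printed beside it and holds no CACGTG within this window. Sequence outside the windows, such as introns, was not searched, so this does not show that Odc1 lacks the motif.
Sms: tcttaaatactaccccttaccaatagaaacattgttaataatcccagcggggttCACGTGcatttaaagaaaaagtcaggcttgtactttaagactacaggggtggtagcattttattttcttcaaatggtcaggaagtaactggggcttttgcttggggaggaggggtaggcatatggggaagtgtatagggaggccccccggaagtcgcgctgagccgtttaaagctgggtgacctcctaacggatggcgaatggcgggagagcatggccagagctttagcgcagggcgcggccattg
Odc1: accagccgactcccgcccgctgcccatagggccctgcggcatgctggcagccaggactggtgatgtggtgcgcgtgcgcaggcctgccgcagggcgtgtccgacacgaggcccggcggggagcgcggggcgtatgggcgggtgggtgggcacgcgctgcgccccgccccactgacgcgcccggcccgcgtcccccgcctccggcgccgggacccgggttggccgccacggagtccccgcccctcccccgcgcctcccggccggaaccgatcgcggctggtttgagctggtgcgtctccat
A match of letters is a description and not a bound site, and these files hold no binding data.

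Amd1 and Oaz1 could not be measured in these libraries. Amd1, on chromosome 10 at 40287458 to 40302186 of GRCm38, had 0 reads in all 15 tumors on every strand column. Of the 50-base words in its transcripts, 86.0% also occur in transcripts of other genes, most of them in Amd2, which was at 0 reads in all 15 tumors too. The counts hold uniquely mapped reads only, and 15.0% to 24.2% of the reads of a library mapped to several places. The zeros of Amd1 are not read as a measurement of its expression, and their cause was not tested. Oaz1 was nearly as thin, with 1 to 16 reads per tumor, and 45.5% of its words also occur elsewhere, all of them in Oaz1-ps. Its group means were 0.505 to 1.25 CPM, and no comparison of it is read further. It stays among the 9 genes of the counts, medians and relations below, where its not passing carries no weight. Odc1, with a share of such words close to that of Oaz1, had 527 to 2915 reads per tumor. The cause of the low Oaz1 counts was not tested. Shared words were fewer in the other genes. They made up 42.2% of Odc1, 28.1% of Sms and 26.4% of Paox, 9.48% of Oaz2, 6.86% of Sat1 and 2.41% of Srm, and none were found in Azin1 or Smox. Levels of genes with many shared words may be understated for that reason, which was not tested.

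Levels between genes were compared as CPM per kilobase of exon. Srm was highest in all 4 groups, at 292 CPM per kilobase in EμMyc, 272 in EμMyc/Casp2-/-, 160 in Th-MYCN and 124 in Th-MYCN/Casp2-/- tumors, and its range lay above that of the next gene in each. Odc1 was next in the lymphomas, at 97.5 and 94.8 CPM per kilobase, and Sat1 in the neuroblastomas, at 63.2 and 45.7 CPM per kilobase. In EμMyc tumors Odc1, Sat1 (70.3) and Azin1 (52.4) followed each other with overlapping ranges between neighbours, and Sms (14.3), Oaz2 (7.37) and Smox (3.05) stood below them without overlap. In Th-MYCN tumors Oaz2 (30.1), Azin1 (28.6) and Sms (28.4 CPM per kilobase) overlapped between neighbours. In Th-MYCN/Casp2-/- tumors the genes from Sat1 down to Oaz2, 5 in all, each overlapped the next. Paox was lowest in every group, at 0.464 to 1.22 CPM per kilobase. Amd1 and Oaz1 were left out of this order. The order was not corrected for shared words, which made up 42.2% of Odc1 and 6.86% of Sat1, so the place of Odc1 relative to Sat1 is uncertain.

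The first question was whether the polyamine genes differ between tumors driven by c-Myc in B cells and by MYCN in neuroblasts. In EμMyc against Th-MYCN tumors Odc1, Srm and Azin1 were higher and Sms, Oaz2 and Smox were lower at an LRT FDR under 0.05, and the QLF test passed the same 6 genes. All 6 separated the 2 groups without overlap, where 59.4% of all genes tested did. Among all genes 28.3% passed as higher and 33.9% as lower, so 3 and 3 of 9 are near the background. Odc1 was called a differentially expressed gene (DEG, a gene that passed and had a log2 fold change beyond 1 in either direction) as higher and Oaz2 and Smox as lower, where the background was 18.9% and 28.5%. The median log2 fold change of the 9 genes was 0.43 against -0.04 over all genes, and the median absolute value 0.88 against 1.02. B cell and neuroblast markers move with every one of these differences, as given above, and their part was not tested.

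The same comparison among Casp2-deficient tumors uses no sample of the first. In EμMyc/Casp2-/- against Th-MYCN/Casp2-/- tumors 6 of 9 genes passed by both tests, and all 6 were DEGs. Odc1, Srm and Paox were higher and Sms, Oaz2 and Smox lower. Over all genes 27.7% passed as higher and 32.5% as lower, and DEGs made up 20.5% and 27.6%. Without overlap were 5 of 9 genes, against 54.8% of all genes. The median log2 fold change of the 9 genes was 0.42 against -0.05 over all genes, and the median absolute value 1.31 against 1.05.

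**Figure D1:**
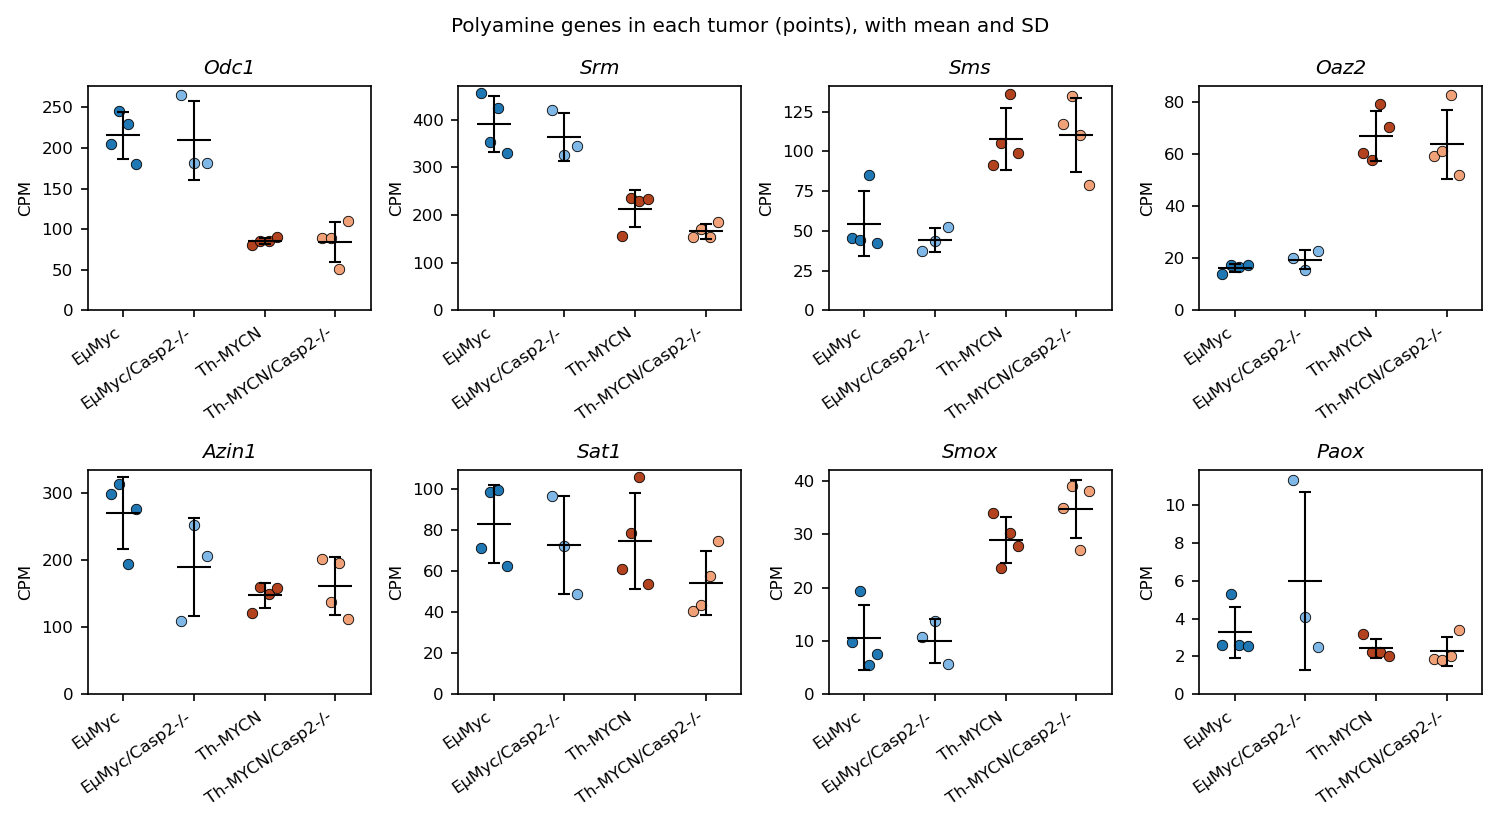
Levels of 8 polyamine genes in CPM (y axis, from 0) in each of the 15 tumors, by group (x axis). Points are tumors, the horizontal mark is the group mean and the bars are the SD. Odc1 and Srm lie higher in lymphomas and Oaz2, Smox and, but for 1 pair of close values, Sms lie higher in neuroblastomas, while both genotypes of a tumor type overlap in every panel.

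Odc1, the gene of the first step, lies on chromosome 12 at 17544794 to 17551505. It was at 205, 246, 230 and 181 CPM in the 4 EμMyc tumors and at 265, 182 and 181 CPM in the 3 EμMyc/Casp2-/- tumors. It was at 80.4, 85.0, 85.8 and 89.9 CPM in the Th-MYCN tumors and at 88.6, 88.9, 50.8 and 110 CPM in the Th-MYCN/Casp2-/- tumors. Every lymphoma was above every neuroblastoma. The log2 fold change was 1.34 (SE 0.22, LRT FDR 1.53e-08, QLF FDR 5.32e-05) with Casp2 and 1.31 (SE 0.24, LRT FDR 2.23e-07, QLF FDR 0.000127) without it. The Th-MYCN tumors spread by only 4.56% of their mean, and the Th-MYCN/Casp2-/- tumors by 29.1%. These levels count second-strand reads, and the split of Odc1 reads between strands varied by tumor. Second-strand reads were 1317 against 2134 on the first strand in MYCN175, and 527 against 866 in MYCNC2ko176. They were 1487 against 1812 in MYCN332 and 1354 against 1636 in MYCNC2ko180. The part of this in the spread was not tested.

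Srm, which adds the first aminopropyl group, lies on chromosome 4 at 148591503 to 148594993. It was at 456, 353, 425 and 331 CPM in EμMyc and 420, 327 and 344 CPM in EμMyc/Casp2-/- tumors. It was at 155, 237, 229 and 233 CPM in Th-MYCN and 154, 171, 153 and 186 CPM in Th-MYCN/Casp2-/- tumors. The lymphomas were again all above the neuroblastomas. The log2 fold change was 0.87 (SE 0.18, LRT FDR 8.82e-06, QLF FDR 0.000314) with Casp2 and 1.13 (SE 0.20, LRT FDR 6.58e-08, QLF FDR 6.25e-05) without it.

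Sms, the last synthesis gene, went the other way. It lies on chromosome X at 157443855 to 157492287, and was at 45.6, 44.3, 85.1 and 42.7 CPM in EμMyc and 37.1, 43.6 and 52.2 CPM in EμMyc/Casp2-/- tumors. Neuroblastomas held 91.7, 105, 136 and 98.8 CPM with Casp2 and 117, 135, 110 and 78.8 CPM without it. Within each genotype the groups did not overlap, although EuMyc829 at 85.1 CPM was above MYCNC2ko180 at 78.8 CPM. The log2 fold change was -0.99 (SE 0.25, LRT FDR 0.000306, QLF FDR 0.00226) and -1.31 (SE 0.28, LRT FDR 1.51e-05, QLF FDR 0.00062). With sex as a covariate, given that the gene is X-linked, these were -0.90 (FDR 0.00362) and -1.23 (FDR 0.000348).

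Oaz2, an antizyme gene on chromosome 9 at 65668001 to 65690300, had the largest log2 difference among the 9 genes in the comparison with intact Casp2. It was at 14.0, 17.3, 16.7 and 17.5 CPM in EμMyc and 20.1, 15.4 and 22.7 CPM in EμMyc/Casp2-/- tumors. It was at 60.5, 58.0, 79.2 and 70.4 CPM in Th-MYCN and 59.2, 61.2, 82.8 and 52.2 CPM in Th-MYCN/Casp2-/- tumors. No lymphoma came near a neuroblastoma. The log2 fold change was -2.03 (SE 0.22, LRT FDR 1.66e-18, QLF FDR 3.85e-07) with Casp2 and -1.72 (SE 0.24, LRT FDR 3.46e-11, QLF FDR 8.02e-06) without it.

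The ratio of Odc1 to Oaz2 reads within a tumor, each per exon length, needs no scaling between libraries. It was 14.8, 14.3, 13.8 and 10.4 in EμMyc and 13.3, 11.8 and 8.02 in EμMyc/Casp2-/- tumors. In neuroblastomas it was 1.34, 1.48, 1.09 and 1.29 with Casp2 and 1.51, 1.46, 0.618 and 2.12 without it. The pair was chosen after its levels were seen, so the ratio is given with no test. Srm over Sms, formed in the same way, was 14.2 to 32.1 in the lymphomas and 3.60 to 6.70 in the neuroblastomas.

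Azin1, whose product frees ornithine decarboxylase from antizyme, lies on chromosome 15 at 38487427 to 38519266. It was at 298, 313, 194 and 275 CPM in EμMyc and 109, 253 and 207 CPM in EμMyc/Casp2-/- tumors. It was at 121, 160, 149 and 159 CPM in Th-MYCN and 201, 138, 195 and 112 CPM in Th-MYCN/Casp2-/- tumors. EuMycC2ko215, the tumor with the high T cell markers, was the lowest of all 15 tumors. With Casp2 the log2 fold change was 0.88 (SE 0.27, LRT FDR 0.00222, QLF FDR 0.0072), and without it 0.23 (SE 0.29, 95% interval -0.33 to 0.79, LRT FDR 0.5). Leaving out EuMycC2ko215 gave 0.56 in the second comparison, still not passing. The difference between both values was tested as the interaction and did not pass (log2 -0.64, SE 0.39, LRT FDR 0.697, QLF FDR 0.753).

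Among the breakdown genes Smox, spermine oxidase, was lower in lymphomas. It lies on chromosome 2 at 131491496 to 131525922, and was at 9.89, 19.3, 5.59 and 7.65 CPM in EμMyc and 10.7, 13.7 and 5.65 CPM in EμMyc/Casp2-/- tumors. It was at 34.0, 23.6, 30.2 and 27.9 CPM in Th-MYCN and 34.9, 39.1, 27.1 and 38.1 CPM in Th-MYCN/Casp2-/- tumors. All lymphomas were below all neuroblastomas. The log2 fold change was -1.44 (SE 0.37, LRT FDR 0.000278, QLF FDR 0.00241) with Casp2 and -1.79 (SE 0.40, LRT FDR 6.13e-05, QLF FDR 0.00125) without it.

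Sat1, the acetyltransferase, overlapped between all groups. It lies on chromosome X at 155213132 to 155216449, and ranged from 49.0 to 99.6 CPM in the lymphomas and from 40.5 to 106 CPM in the neuroblastomas. Its log2 fold change was 0.15 (95% interval -0.41 to 0.72, LRT FDR 0.661) with Casp2 and 0.42 (95% interval -0.19 to 1.03, LRT FDR 0.232) without it. Neither interval leaves room for a difference of the size of that in Oaz2.

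Paox, polyamine oxidase, on chromosome 7 at 140115799 to 140137224, was low. It was at 2.62, 5.30, 2.60 and 2.55 CPM in EμMyc and 11.3, 4.09 and 2.52 CPM in EμMyc/Casp2-/- tumors. It was at 2.04 to 3.18 CPM in Th-MYCN and 1.80 to 3.41 CPM in Th-MYCN/Casp2-/- tumors, so the groups overlapped in both comparisons. The log2 fold change was 0.43 (SE 0.49, LRT FDR 0.458) with Casp2 and 1.36 (SE 0.53, LRT FDR 0.019, QLF FDR 0.0306) without it. The second call was lost without EuMycC2ko215, where the log2 fold change was 0.61 (FDR 0.28), without MYCNC2ko118 (1.27, FDR 0.0563) and without MYCNC2ko144 (1.25, FDR 0.0592). EuMycC2ko215 is also the tumor with the high T cell markers and the low depth, and their part was not tested. In the GENCODE annotation 2.89% of the Paox exon bases lie opposite exons of Echs1, and the libraries do not mark strand.

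The second question was whether loss of Casp2 changes these genes within a tumor type. With Th-MYCN/Casp2-/- set against Th-MYCN tumors, 0 of 9 genes passed by LRT or QLF and 0 had an unadjusted LRT p under 0.05, while 0.894% of all genes passed by LRT. All 9 overlapped between the groups, and 6.62% of all genes did not. The smallest p was that of Srm, with a log2 fold change of -0.36 (SE 0.19, unadjusted LRT p 0.0512, FDR 0.646). Odc1 was at -0.01 (95% interval -0.45 to 0.43), Oaz2 at -0.07 (-0.49 to 0.35), Sms at 0.03 (-0.46 to 0.53) and Azin1 at 0.13 (-0.38 to 0.65). These intervals leave out a doubling or halving on the log2 scale of those 4 genes. Sat1 was at -0.47 (-1.03 to 0.10), Smox at 0.27 (-0.44 to 0.98) and Paox at -0.10 (-1.07 to 0.87). Summed neuroblast and endothelial markers were lower without overlap in the Th-MYCN/Casp2-/- tumors, as given below with Azin2, and their part was not tested.

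In EμMyc/Casp2-/- against EμMyc tumors 0 of 9 genes passed by LRT, QLF or an unadjusted LRT p under 0.05, and 1.5% of all genes passed. All 9 overlapped, and 3.7% of all genes did not. Azin1 had the smallest p, with a log2 fold change of -0.51 (SE 0.29, unadjusted LRT p 0.0785, FDR 0.591), which was -0.22 without EuMycC2ko215. Odc1 was at -0.04 (95% interval -0.51 to 0.43), Srm at -0.11 (-0.50 to 0.29), Sms at -0.30 (-0.84 to 0.25) and Oaz2 at 0.24 (-0.23 to 0.72). Sat1 was at -0.20 (-0.81 to 0.41) and Smox at -0.08 (-0.88 to 0.71). Paox was at 0.84 (-0.20 to 1.87), and at 0.03 without EuMycC2ko215. The effect of genotype was also compared between the tumor types, and 0 of 9 genes passed that interaction by LRT, QLF or an unadjusted p under 0.05, where 0.914% of all genes passed by LRT.

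**Figure D2:**
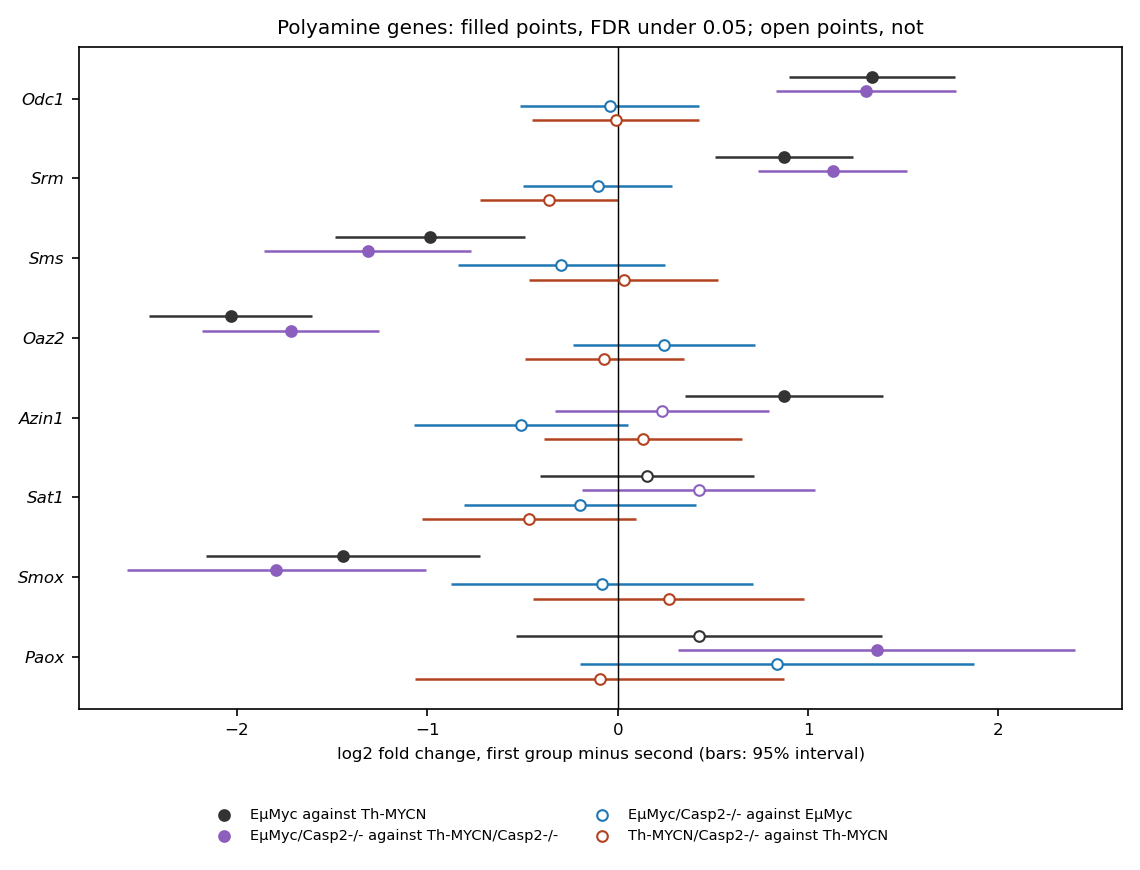
Log2 fold changes (x axis) of 8 polyamine genes (y axis) in 4 comparisons, first group minus second, with bars for the 95% interval. Filled points passed an LRT FDR of 0.05 and open points did not. The 2 comparisons of tumor types put Odc1 at 1.34 and 1.31 and Oaz2 at -2.03 and -1.72, and all points of the 2 comparisons of genotypes are open.

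The third question was whether the genes follow the level of Myc or Mycn from tumor to tumor. Over 18 relations, 9 genes in the 7 lymphomas with Myc and in the 8 neuroblastomas with Mycn, Sms with Myc was the only one to pass by 2-sided exact permutation test with Benjamini-Hochberg adjustment. Ordered by Myc from 498 CPM in EuMycC2ko215 to 1914 CPM in EuMyc829, Sms was at 37.1, 42.7, 43.6, 44.3, 45.6, 52.2 and 85.1 CPM, the same order in all 7 tumors. On log2 values Pearson's r was 0.65 (exact permutation p 0.000397, adjusted p 0.00714) and Spearman's rho was 1 (p 0.000397, adjusted p 0.00714). This p is the smallest that 7 tumors allow. An identical order in both genes fixes it for r whatever the size of r, so the 2 tests are not independent. Without the 2 tumors farthest from the median of Myc, EuMycC2ko215 and EuMyc835, r was 0.86 with an exact permutation p of 0.0167, the smallest that 5 tumors allow, and an adjusted p of 0.3. On values centred on genotype means r was 0.59 (exact permutation p 0.108, adjusted p 0.454), which did not pass, while the order of Sms was that of Myc within the 4 EμMyc and within the 3 EμMyc/Casp2-/- tumors. The sole female tumor was lowest in both genes, and the part of sex was not tested in this relation.

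The relation of Odc1 with Myc among the lymphomas did not pass (r -0.48, rho -0.11, exact permutation p 0.335 and 0.84, adjusted 0.669 and 0.934). With Mycn among the neuroblastomas its r was 0.81 and its rho 0.43 (exact permutation p 0.0644 and 0.299, adjusted 0.29 and 0.598), and r was 0.48 without MYCNC2ko176 and MYCNC2ko144. On values centred on genotype means r was 0.87 (exact permutation p 0.00853, adjusted 0.131), which did not pass either. MYCNC2ko176 had the lowest level of both, with 50.8 CPM of Odc1 and 230 CPM of Mycn. Of its Odc1 reads, 527 were on the second strand and 866 on the first, and the part of this was not tested. Srm with Mycn had an r of 0.64 (exact permutation p 0.0618, adjusted 0.29). None of the remaining relations passed after adjustment.

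**Figure D3:**
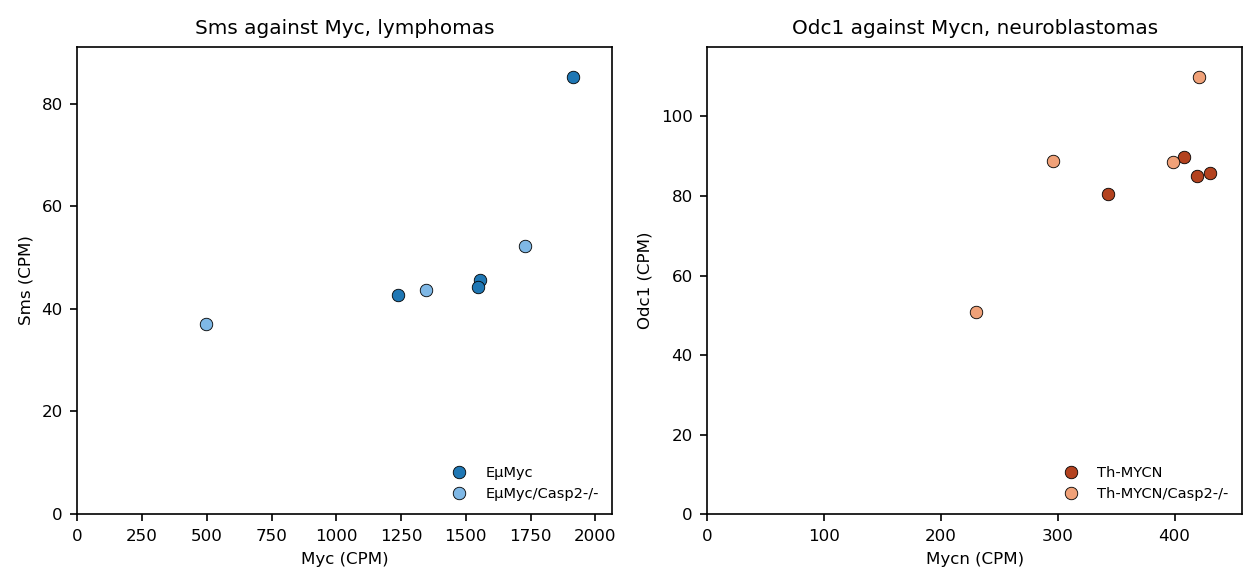
Left, Sms against Myc in the 7 lymphomas, and right, Odc1 against Mycn in the 8 neuroblastomas, both axes in CPM and from 0, with 1 point per tumor and colors for genotype. Sms rises from 37.1 to 85.1 CPM in the order of Myc, and the neuroblastoma at 50.8 CPM of Odc1 is the one at 230 CPM of Mycn.

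Among all genes tested, those most like Odc1 over the 15 tumors on log2 CPM centred on group means were Aloxe3 (Pearson's r 0.94), Foxo4 (0.90) and 1700066B19Rik (0.89), out of 14879 genes. This is a description over points that share their libraries. Among the polyamine genes the same measure was 0.46 between Odc1 and Srm, -0.60 between Odc1 and Azin1 and 0.63 between Sat1 and Paox.

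A wider list of 32 genes covers the supply of ornithine and of aminopropyl groups, transport and hypusine, the modified residue that spermidine gives to eIF5A. Of the 32 genes, 25 passed the low-count filter, and 16 passed an LRT FDR of 0.05 in EμMyc against Th-MYCN tumors, 10 higher and 6 lower, or 64% against 62.2% of all genes. In EμMyc/Casp2-/- against Th-MYCN/Casp2-/- tumors 16 passed too, again 10 higher and 6 lower, against 60.2% of all genes. Both counts are near the background. In the comparisons of genotypes and in the interaction 0 of 25 passed by LRT or QLF. Unadjusted LRT p values were under 0.05 for 1 gene in the neuroblastomas, 4 in the lymphomas and 3 in the interaction, or 4%, 16% and 12% against 7.78%, 9.89% and 8.96% of all genes. Genotypes did not overlap for 1 of 25 genes in the neuroblastomas and 3 of 25 in the lymphomas, against 6.62% and 3.7% of all genes. The 3 were Arg1 and Mat2a, lower in EμMyc/Casp2-/- tumors, and Ahcy, higher in them. For Arg1 this rests on 1 to 6 reads against 9 to 48 reads. DEGs of both tumor type comparisons were 11 genes, of which the 10 with the largest mean absolute log2 fold change are described.

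Methionine salvage recycles the methylthioadenosine left over from polyamine synthesis, and the methionine cycle supplies S-adenosylmethionine. Of 8 genes of both routes, 7 passed as higher and 0 as lower in lymphomas with Casp2, where the shares of all genes were 28.3% and 33.9%, and 6 and 0 without it, where they were 27.7% and 32.5%. Apip, a salvage enzyme, passed in neither comparison (log2 -0.05 and -0.13, LRT FDR 0.879 and 0.734). Mtap, the phosphorylase that opens salvage, was at 81.9 to 173 CPM in lymphomas and 22.1 to 42.2 CPM in neuroblastomas (log2 1.85 in both comparisons, SE 0.25 and 0.27, LRT FDR 2.19e-12 and 3.25e-11). Mri1, the next enzyme, had log2 fold changes of 1.15 and 1.49, and Adi1, a later one, 2.24 and 2.18. Ahcy, which clears S-adenosylhomocysteine, was at 33.1 to 65.4 CPM and 2.27 to 18.2 CPM (2.17 and 2.32, SE 0.53 and 0.57). All 4 separated the tumor types without overlap, as did 59.4% and 54.8% of all genes.

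Of 4 tested genes of ornithine supply, 3 passed with Casp2 and 2 without it, where 62.2% and 60.2% of all genes passed. Arg1, arginase, which makes ornithine and is also known from macrophages, was at 0.167 to 4.20 CPM in lymphomas and 9.26 to 68.5 CPM in neuroblastomas (log2 -3.91 and -6.84, SE 0.61 and 0.80, LRT FDR 2.28e-08 and 5.62e-13). It had 9 to 48 reads in EμMyc and only 1 to 6 reads in EμMyc/Casp2-/- tumors, so the size of the second value is uncertain. Summed macrophage markers were at 313 to 1678 CPM and 375 to 935 CPM, and the part of macrophages in the Arg1 difference was not tested. Azin2, a second antizyme inhibitor, listed in the files under its older name Adc, was at 0.599 to 1.49 CPM in lymphomas and 17.5 to 66.6 CPM in neuroblastomas (log2 -5.75 and -4.81, SE 0.37 and 0.42, LRT FDR 9.84e-44 and 3.53e-25). It went against Azin1, which was higher in EμMyc than in Th-MYCN tumors. Between the neuroblastomas Azin2 was lower in all Th-MYCN/Casp2-/- tumors (17.5 to 46.3 CPM) than in all Th-MYCN tumors (51.5 to 66.6 CPM) but did not pass (log2 -0.66, SE 0.31, LRT FDR 0.563, QLF FDR 0.666). It was 1 of 25 tested genes of the wider list without overlap in this comparison, against 6.62% of all genes. In the Th-MYCN/Casp2-/- tumors the summed neuroblast markers (2344 to 3338 against 3531 to 4116 CPM over 6 genes) were also lower without overlap. So were the endothelial markers (15.7 to 28.0 against 41.6 to 65.6 CPM over 4 genes). None of these markers was at 0, and their part was not tested.

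Oaz3, an antizyme gene known from the testis, had 0 to 3 reads in the lymphomas and 94 to 277 reads in the neuroblastomas. Its mean was 14.6 CPM in Th-MYCN tumors and 11.6 CPM in Th-MYCN/Casp2-/- tumors, the latter at least 19.7-fold higher than 3 reads in the shallowest EμMyc/Casp2-/- library. Exons of Tdrkh on the other strand cover 52.1% of the Oaz3 exon bases, and Tdrkh had 6.01 to 7.15 log2 CPM in neuroblastomas and -1.47 to 2.28 in lymphomas. The libraries do not mark strand, so reads of Oaz3 and of Tdrkh there cannot be told apart.

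Sat2, a relative of Sat1, was the only one of 3 listed breakdown genes to pass the filter, and was at 0.0835 to 1.95 CPM in lymphomas and 6.12 to 13.4 CPM in neuroblastomas (log2 -4.43 and -4.19, SE 0.60 and 0.63, LRT FDR 1.88e-12 and 4.90e-09). It had 3 to 5 reads in EμMyc and 1 to 10 reads in EμMyc/Casp2-/- tumors, so the size of both values is uncertain. Among 6 transport genes, Slc18b1, a vesicular polyamine transporter, was lower in lymphomas (0.709 to 3.32 CPM against 19.2 to 28.5 CPM, log2 -4.34 and -3.23, SE 0.38 and 0.40). Atp13a3, an ATPase linked to polyamine uptake, was higher (175 to 497 CPM against 53.1 to 114 CPM, log2 2.03 and 1.80, SE 0.27 and 0.29). Of 4 hypusine genes, 1 passed with Casp2 and 2 without it, against the same 62.2% and 60.2%. Eif5a, named after its values were seen, was at 1517 to 1942 CPM in lymphomas and 713 to 999 CPM in neuroblastomas (log2 1.08 and 1.06, SE 0.16 and 0.18).

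**Figure D4:**
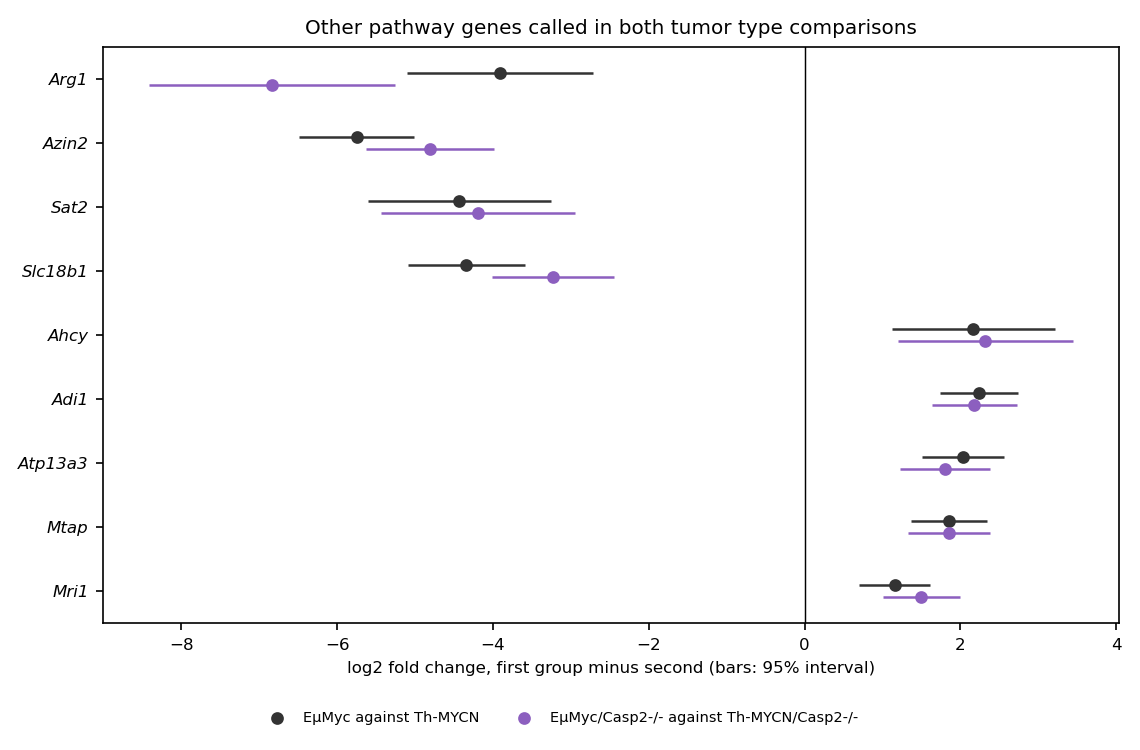
Log2 fold changes (x axis, lymphomas minus neuroblastomas) of 9 further pathway genes (y axis) with intact Casp2 and without it, and bars for the 95% interval. Oaz3 is left out since no interval could be fitted. Mtap, Mri1, Adi1, Ahcy and Atp13a3 lie above 0 and Arg1, Azin2, Sat2 and Slc18b1 below, from 2.32 for Ahcy to -6.84 for Arg1. The last value rests on 1 to 6 Arg1 reads in the EμMyc/Casp2-/- tumors.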

How the data were processed

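RNA of 15 tumors (4 EμMyc, 3 EμMyc/Casp2-/-, 4 Th-MYCN, 4 Th-MYCN/Casp2-/-) was enriched for poly(A) and sequenced as single 50-base reads. The authors aligned reads to mm10/GRCm38 with STAR after FastQC, and deposited raw counts of uniquely mapped reads per gene, without normalization, for either strand and each strand. Counts on the second strand were used here. This column holds 48.8% to 49.3% of gene reads in every library, so the libraries mark no strand and the column takes about 1 in 2 reads over all genes. The share can differ for a single gene, as given for Odc1. A further EμMyc/Casp2-/- tumor that the authors removed is not analysed here. Groups came from the labels, and sex, used only as a covariate, from the study's sample table.

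Genes above 1 CPM in 3 or more tumors were fitted in edgeR 4.0.16 (R 4.3.3) with TMM scaling and 4 group means over all tumors. The LRT follows the likelihood ratios of the study, with Benjamini-Hochberg FDR over all 14880 genes, and QLF is given beside it. CPM are TMM scaled. On simulated counts with 200 genes changed, the LRT recovered 43% of genes changed by 1 log2 unit and 87% of those changed by 2 in the neuroblastoma design, with 15.6% of calls false, and QLF 26% and 79%, with 4.55% false. In the lymphoma design these were 32%, 83% and 14.2% for the LRT and 19%, 71% and 4.26% for QLF. Counts were drawn from the fitted model in a single run per design. Changed genes were taken only above a minimum mean read number, so these shares do not cover genes with few reads, such as Oaz1.

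A level of 3 reads corresponds to 0.173 to 0.586 CPM by library, a limit of counting error alone. Correlations used log2 CPM with a prior count of 2 and exact permutation in scipy 1.17.1. Symbols were matched to GENCODE on GRCm38 and to RefSeq, and 3 genes of the wider list through older names. Words of 50 bases shared between transcripts came from GENCODE. The named genes were all 10 polyamine genes, Casp2, Myc, Mycn, up to 10 genes of the wider list called in both tumor type comparisons and those passing in a genotype comparison, and the 3 genes most like Odc1. The members and lists were chosen with earlier results of these data known. Alternatives were QLF, DESeq2 1.42.0, other scalings (RLE, library totals), other filters, either-strand counts, a sex covariate, fits of the compared groups alone and leaving out each tumor.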

Additional observations from a re-analysis of the deposited data

Results flagged for a closer look

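Of 27 sets of 4 tumors checked for a tumor far from the others, 4 had a gap to the nearest tumor above Dixon's 95% critical value, where chance gives about 1 in 20. They were Srm in MYCN175, the lowest Th-MYCN tumor at 155 CPM, Sms in EuMyc829, the highest EμMyc tumor at 85.1 CPM, Paox in EuMyc743b, the highest EμMyc tumor at 5.30 CPM, and Paox in MYCNC2ko180, the highest Th-MYCN/Casp2-/- tumor at 3.41 CPM. The gaps were 0.909, 0.932, 0.972 and 0.86 of the range. Groups of 3, as the EμMyc/Casp2-/- tumors, were not checked.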

How the results depend on the processing

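The number of polyamine genes passing was 6 in EμMyc against Th-MYCN tumors under every alternative, and 5 to 6 in EμMyc/Casp2-/- against Th-MYCN/Casp2-/- tumors. Paox was the gene lost there, in 3 of 7 fits that left out a tumor, and it was not tested over 5 CPM. In both genotype comparisons and the interaction the number was 0 under every alternative. Of the 6 calls with Casp2 and the 5 other calls without it, all kept their direction and passed in every setting, among them each left-out tumor. Leaving out a tumor moved Odc1 from 1.27 to 1.41 with Casp2 and from 1.11 to 1.51 without it, and Smox from -1.90 to -1.22 and from -2.04 to -1.51. The number of all genes passing depended on the test, the samples fitted and single tumors. It was 133 by LRT and 5 by QLF in the neuroblastomas, 223 and 21 in the lymphomas, and 136 and 8 for the interaction. Fitting the compared groups alone gave 353 in the neuroblastomas and 46 in the lymphomas. With sex as a covariate these were 56 and 105. Single tumors moved these LRT counts as well. The lymphomas had 77 without EuMycC2ko215, 371 without EuMycC2ko239 and 571 without EuMycC2ko245. The neuroblastomas had 200 without MYCN175, 40 without MYCN235, 31 without MYCN391, 54 without MYCNC2ko118, 46 without MYCNC2ko144 and 78 without MYCNC2ko176. The interaction had 64 without EuMycC2ko215, 322 without EuMycC2ko245, 64 without MYCN235, 55 without MYCN391 and 67, 75, 86 and 74 without MYCNC2ko118, MYCNC2ko144, MYCNC2ko176 and MYCNC2ko180.

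For the relations with Myc and Mycn, 1 passed by Pearson's r and by Spearman's rho, which rest here on the same order of tumors. With the 2 farthest tumors left out, where 5 or 6 tumors remained, 0 passed. On values centred on genotype means, an alternative chosen after seeing the data, 0 passed. The share of genes with a promoter match was 12.5% for CACGTG and 87.5% for CANNTG, which is a looser pattern by construction.

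Read numbers limit Paox, at 21 to 62 reads per tumor, and Amd1 and Oaz1 have too few uniquely mapped reads to be measured in any library. Groups of 3 or 4 tumors leave intervals of about 1 log2 unit for most genes between genotypes. No paired analysis was possible because replicate numbers of different groups mark no shared animal.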
